A study of Mus musculus with 6 samples.

Results

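Caveolae are flask-shaped pits of the plasma membrane that are abundant in blood endothelium, smooth muscle and fat cells. Caveolins form their coat, cavins assemble on it from the cytosol, EHD ATPases hold the neck, PACSIN2 bends the membrane, and the GTPase dynamin 2 cuts the neck of budding vesicles. PLVAP builds the thin diaphragms that span caveolae, fenestrae and transendothelial channels, and in lymph nodes (LN) it is also known from the lymphatic endothelium that lines the sinuses. The members examined here were 10 genes of this machinery, taken by name from a gene list. The list was chosen with earlier results of these data known. The members were Cav1, Cav2, Cavin1 (Ptrf on older lists), Cavin2 (Sdpr), Cavin3 (Prkcdbp), Plvap, Ehd2, Ehd4, Pacsin2 and Dnm2. Of these, 9 had 24 probe sets of their own, out of 18193 genes and 45037 probe sets tested, while Pacsin2 had none in the platform table used and was not analysed here.

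RNA came from CD45neg stromal cells of pooled LN (inguinal, brachial, axillary, cervical and mesenteric) of C57BL/6 mice aged 6 weeks, sorted by gp38 and CD31. The 3 arrays with the gate label double positive (gp38 and CD31) carry the cell type label BEC, and the 3 arrays with the gate label CD31+ carry the cell type label LEC, which is the reverse of the gates described for the study, where LEC were gp38+ CD31+ and BEC gp38neg CD31+. The arrays were therefore grouped by the gate label, and under the cell type label every sign below would turn. The values are log2 RNA abundances after GCRMA normalization, and differences are double positive minus CD31+, taken between group means of 3 arrays. Labels call the replicates biological, but how many mice each pool held is not given in the sources used here.

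Most but not all lymphatic and blood endothelial markers ran with the gate labels. Lyve1, which binds hyaluronan on lymphatic vessels, averaged 11.08 ± 0.108 in double-positive and 5.76 ± 0.294 in CD31+ arrays, and Flt1, a VEGF receptor of blood vessels, averaged 3.50 ± 0.0488 and 8.02 ± 0.238 (SD, n = 3 each). Pdpn, which encodes gp38, averaged 7.64 ± 0.588 and 3.58 ± 0.253 (SD, n = 3 each). At 5% FDR over all probe sets limma called 3 of 6 lymphatic markers higher and 5 of 8 blood vessel markers lower. Of all probe sets 0.502% were called higher and 0.113% lower. Prox1, the regulator of lymphatic identity, differed by 0.07 with overlapping groups at that probe set. Glycam1, a ligand made by high endothelial venules, differed by -0.80 with overlapping groups. Pecam1, which encodes the CD31 of the gate, was at or near the floor of 2.39 in either group, with means of 2.41 and 2.48. Double-positive arrays were the brighter ones, with a median difference of 0.75 over 5764 probe sets whose mean reached 5, and centring each array on the median of these probe sets lowered every difference by 0.68. Differences of that size therefore depend on the scaling, and both scales are given where they part. In further fits a filter left out dim probe sets, those that did not reach a log2 value of 5 on 3 or more arrays. A probe set that reached 5 in 1 group alone was kept because of that group, so its filtered call is no support for a difference, and such probe sets are named. With the filter limma called 6 of 6 lymphatic markers higher, Prox1 at another probe set whose values are not given here, and 6 of 8 blood vessel markers lower. Of all filtered probe sets 32.9% were called higher and 3.81% lower. Pdpn, Flt4, Reln, Flt1, Cd34, Sox17 and Ackr1 reached the filter at their highest-mean probe set through 1 group alone. The control probe set for B1 repeats had 12.28 and 12.84 on the arrays numbered 2 against 7.47 to 8.11 on the others, so differences that turn without these arrays are named. In sorted bulk RNA, fewer cells of a type and less RNA per cell cannot be told apart.

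Of the 9 measured members, limma called 0 higher and 0 lower at 5% FDR over all probe sets, where 0.502% of probe sets were called higher and 0.113% lower. Before adjustment, at p under 0.05, there were 3 member probe sets higher, all of Cavin2, and 1 lower, that of Ehd4, against 7.64% and 1.32% of all probe sets. The groups did not overlap for 2 genes that were higher, Cavin2 and Cavin1, and for 1 that was lower, Ehd4, against 16.9% and 3.42% of all genes, each at its brightest probe set (highest mean over the 6 arrays). For Cavin1, which was dim, the gap between the groups was only 0.01. The median difference of the 9 genes was 0.14. That of all 18193 genes was 0.00, but 8813 of these stayed below 3 on all arrays. Over the probe sets whose mean reached 5 it was 0.75. The members fell into 3 kinds: Cav1, Cav2 and Plvap were bright on every array with overlapping groups, Cavin2 and Ehd4 were bright with groups that did not overlap, and Cavin1, Cavin3, Ehd2 and Dnm2 were dim.

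**Figure D1:**
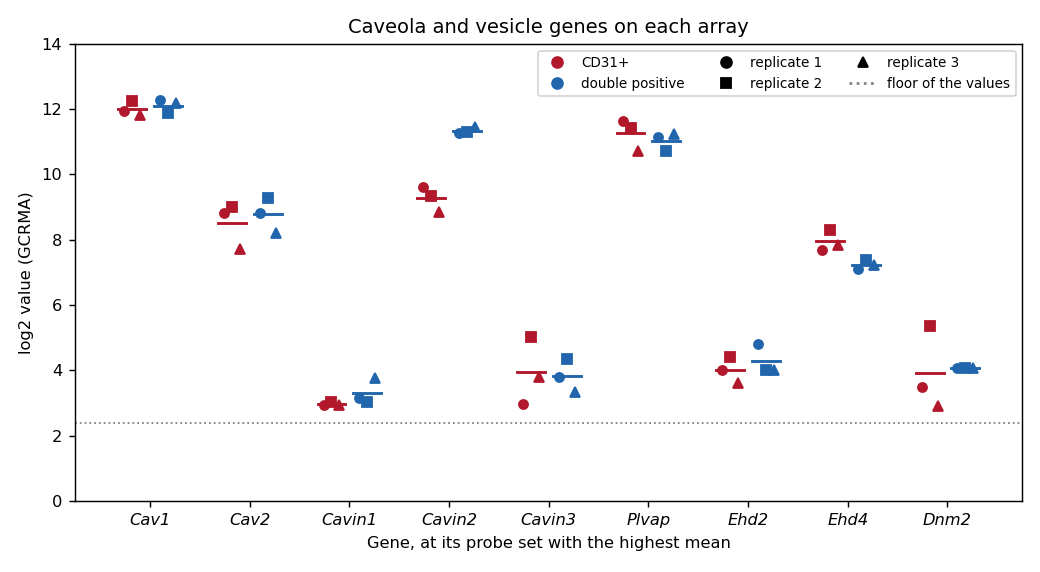
Log2 values (GCRMA, vertical axis) of the 9 measured members (horizontal axis) at the brightest probe set of each. Points are arrays, shaped by replicate number and coloured by group, and lines are means of 3 arrays. Cav1 and Plvap lie above 10.7 on all 6 arrays with overlapping groups, Cavin2 is separated between groups, and Cavin1 does not exceed 3.76 (the floor of 2.39 is dotted).

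Cav1, the caveolin without which endothelium forms no caveolae, was bright on every array of both groups. Its only probe set (1449145_a_at) had log2 values of 12.27, 11.87 and 12.18 in the double-positive arrays and 11.94, 12.25 and 11.82 in the CD31+ arrays. The groups overlapped, and the arrays numbered 2 ran opposite to the other pairs. The difference was 0.10 (95% interval -0.36 to 0.57, limma, adjusted p = 0.846), and -0.57 with centred arrays (limma with the filter, adjusted p = 0.149). The interval holds small changes either way.

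Cav2, which joins Cav1 in mixed oligomers and is its next protein-coding neighbour on the GRCm38.p6 assembly, was also measured on every array. Probe set 1417327_at had 8.82, 9.29 and 8.22 in the double-positive arrays and 8.83, 8.99 and 7.73 in the CD31+ arrays. In both groups replicate 3 was lowest and replicate 2 highest, and the groups overlapped. The difference was 0.26 (95% interval -1.03 to 1.56, limma, adjusted p = 0.889), and -0.41 with centred arrays. The other probe set of Cav2 had the same value on 4 arrays, at 2.84, and did not exceed 3.09.

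Plvap, whose product makes the diaphragms and is the antigen of a classical antibody against blood vessels, was bright in both groups. Probe set 1418090_at had 11.15, 10.72 and 11.23 in the double-positive arrays and 11.64, 11.42 and 10.72 in the CD31+ arrays. The groups overlapped, with CD31+ replicate 3 at the level of the lowest double-positive array. The difference was -0.22 (95% interval -1.04 to 0.60, limma, adjusted p = 0.770), and it was 0.01 without both arrays numbered 2. With the filter and centred arrays it was -0.90 and passed as lower (limma, adjusted p = 0.0403), so the call rests on the scaling. The blood endothelial gene Flt1 differed by -4.52 on the same arrays, and Cd34, a sialomucin of blood endothelium, by -4.37.

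Among the cavins, Cavin2, a phosphatidylserine-binding protein that joins the caveolar coat and shapes it, had the largest difference of the 9 measured members. Its brightest probe set (1416778_at) had log2 values of 11.27, 11.29 and 11.46 in the double-positive arrays and 9.63, 9.33 and 8.86 in the CD31+ arrays. Every double-positive array lay above every CD31+ array. The difference was 2.07 (95% interval 1.47 to 2.66, standard error 0.222), 4.19-fold on the linear scale, with same-numbered arrays apart by 1.64, 1.96 and 2.60. It missed 5% FDR over all probe sets (limma, adjusted p = 0.059) and did so with any 1 array left out (adjusted p 0.0721 to 0.235 from limma). With same-numbered arrays blocked it missed as well (limma over all probe sets, adjusted p = 0.298). Without both arrays numbered 2 the difference was 2.12.

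The other probe sets of Cavin2 had differences of the same sign. Probe set 1416779_at had 7.00, 7.16 and 6.57 in the double-positive arrays and 5.03, 3.94 and 4.76 in the CD31+ arrays, a difference of 2.34 (limma, adjusted p = 0.113). Probe set 1443832_s_at, of a class that can share sequence with other transcripts, had 6.11, 6.84 and 5.49 against 5.41, 4.22 and 3.76, a difference of 1.68 (limma, adjusted p = 0.530). At all 3 probe sets of the gene the groups did not overlap, though at the last the gap was only that between 5.49 and 5.41. The 3 probe sets read the same RNA and are not independent of each other.

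The filter on dim values changed the outcome for Cavin2, while the values themselves stayed the same. It kept 6088 probe sets, of which 7 belonged to members: those of Cav1, Plvap and Ehd4, 1 of Cav2 and 3 of Cavin2. Limma then called the 3 probe sets of Cavin2 higher (adjusted p = 0.00116, 0.00159 and 0.0280) and no member lower, against 32.9% of the kept probe sets called higher and 3.81% lower. Probe sets 1416779_at and 1443832_s_at reached 5 on the 3 double-positive arrays and on CD31+ replicate 1 alone of the others, so the group in which they were higher carried them past the filter and their calls are no support of their own. Probe set 1416778_at was above 5 on all 6 arrays. When same-numbered arrays were blocked, the filter gave 1416778_at an adjusted p of 0.000296 from limma and the same 3 calls, where 47.4% of probe sets were called higher and 4.78% lower. A call as higher was thus common among bright probe sets on these arrays.

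Centring removes that common shift, and the difference of Cavin2 kept its direction. With the filter and centred arrays 1416778_at differed by 1.39 (limma, adjusted p = 0.00353) and 1416779_at by 1.66 (limma, adjusted p = 0.00878), and these 2 were called higher. The double-positive arrays had carried 1416779_at past the filter, so its call is again no support of its own. Probe set 1443832_s_at, at 1.01, was not called (limma, adjusted p = 0.120). In that fit 12.0% of probe sets were called higher and 9.18% lower, and the members called lower were Ehd4 and Plvap. The change of Cavin2 was also set against that of Cav1 within each array, a comparison chosen after the values were seen, which no scaling of whole arrays can move. Cavin2 minus Cav1 was -1.01, -0.58 and -0.72 in the double-positive arrays and -2.31, -2.92 and -2.96 in the CD31+ arrays. The means differed by 1.96 (exact permutation test, 2-sided p = 0.1, the smallest that 3 unpaired arrays against 3 can give), and all 3 double-positive arrays lay above all CD31+ arrays. The test ignored the pairing of same-numbered arrays.

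**Figure D2:**
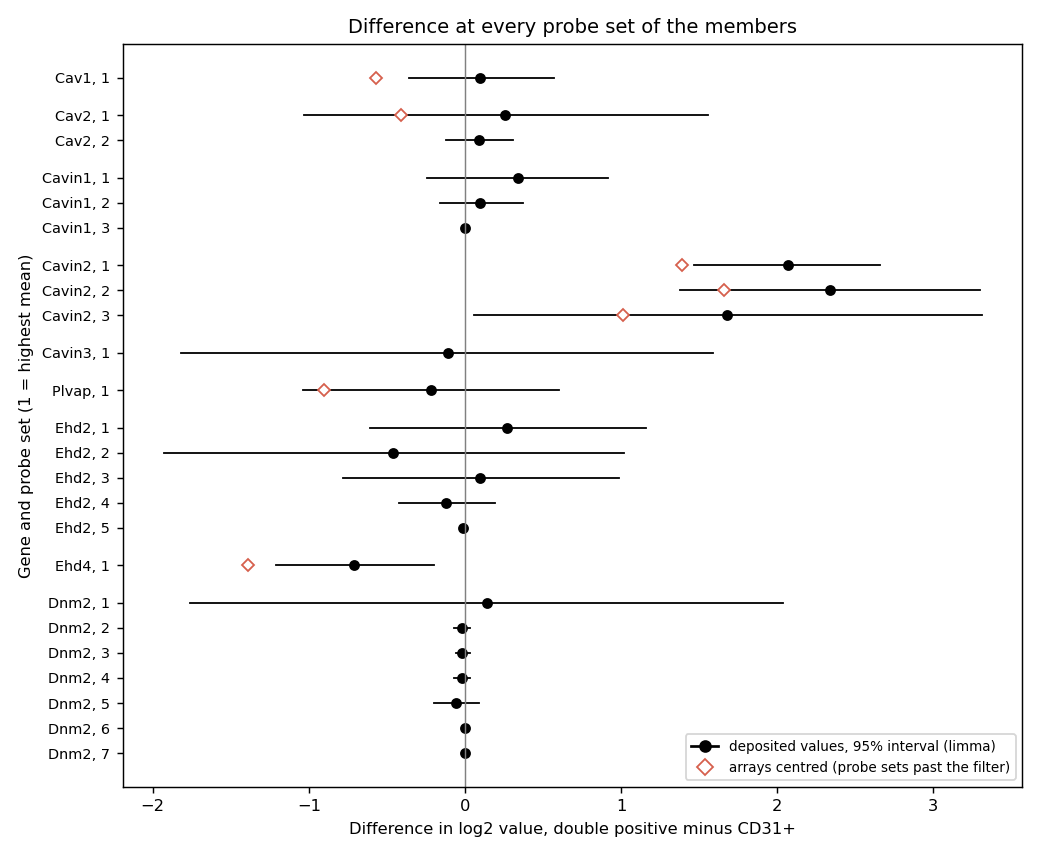
Difference in log2 value (double positive minus CD31+, horizontal axis) at each of the 24 probe sets of the members (vertical axis, numbered from the highest mean). Filled circles with bars are deposited values with 95% intervals from limma, and open diamonds are differences with centred arrays for the 7 probe sets past the filter. The 3 probe sets of Cavin2 lie right of 0 on both scales and that of Ehd4 left of 0, while Cav1 and Cav2 change side with centring.

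Cavin2 is also abundant in platelets, so genes of platelets were looked up, with a list made after the values were seen. Of 7 measured platelet genes, 5 stayed below a log2 value of 3 on all arrays, among them Ppbp, Gp9, Gp1bb and Gp6. Itga2b, an integrin of platelets, had 5.44, 5.25 and 4.49 in the double-positive arrays and 3.04, 3.52 and 3.21 in the CD31+ arrays, a difference of 1.80 (limma, adjusted p = 0.144) without overlap. The platelet chemokine gene Pf4 had 8.13, 9.03 and 8.34 against 6.46, 8.31 and 8.24, with overlapping groups. The linear values summed over the 7 genes ran from 349 to 586 in the double-positive and from 123 to 358 in the CD31+ arrays, and their part in the difference of Cavin2 was not tested.

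Cavin1, the cavin that all caveolae require, was dim in both groups at its 3 probe sets. At 1424130_a_at it had 3.16, 3.02 and 3.76 in the double-positive arrays and 2.95, 3.02 and 2.95 in the CD31+ arrays. Double-positive replicates 1 and 3 lay above all CD31+ arrays, while the arrays numbered 2 were apart by only 0.01. The difference was 0.34 (95% interval -0.24 to 0.92, limma, adjusted p = 0.659). Its probe set 1421431_at lay at the floor of 2.39 on all 6 arrays.

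Cavin3, which recruits protein kinase C delta to caveolae, had 3.80, 4.34 and 3.32 in the double-positive arrays and 2.98, 5.02 and 3.80 in the CD31+ arrays at 1423771_at. The widest values lay in the CD31+ arrays, and those of the other group fell between them. The difference was -0.11 (95% interval -1.82 to 1.59, limma, adjusted p = 1). Without both arrays numbered 2 it was 0.17.

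The dim probe sets of the members carried repeated values. All 17 that did not pass the filter had exactly the same value (to 6 decimals) on at least 2 arrays, as did 85.5% of all probe sets that did not pass, against 0 of the 7 that passed and 8.61% of all that passed. Differences at such probe sets rest on the few arrays that leave a shared value, so no difference can be read for the dim members, and their RNA may be present all the same. Cavin1 was dim on the arrays on which Cav1 was bright, but levels are not compared between them, since probe sets differ in their response.

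Of the EHD members, Ehd4 had lower values in the double-positive arrays and Ehd2 was dim. Ehd4, an ATPase of endocytic recycling that can also join caveolae, had log2 values of 7.10, 7.39 and 7.23 in the double-positive arrays and 7.70, 8.29 and 7.85 in the CD31+ arrays at its only probe set (1449852_a_at). All double-positive arrays lay below all CD31+ arrays, with same-numbered arrays apart by -0.60, -0.90 and -0.62. The difference was -0.71 (95% interval -1.21 to -0.20, limma, adjusted p = 0.319), which is 1.63-fold on the linear scale. With the filter it did not pass (limma, adjusted p = 0.0792), and with the filter and centred arrays it was -1.39 and passed as lower (limma, adjusted p = 0.00610).

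Ehd2, the EHD protein that sits at the necks of caveolae, was dim at all 5 probe sets. The one with the highest mean (1435785_at) had 4.79, 4.02 and 4.02 in the double-positive arrays and 4.00, 4.41 and 3.60 in the CD31+ arrays. The groups overlapped, and the value of 4.02 was shared by 2 arrays. The difference was 0.27 (95% interval -0.61 to 1.16, limma, adjusted p = 0.716), and the other probe sets differed by -0.46 to 0.10. Dnm2, the GTPase of vesicle fission, had 7 probe sets, of which 6 did not exceed 3.36 on any array. The remaining one (1425135_a_at) had 4.06 on all 3 double-positive arrays and 3.50, 5.35 and 2.90 on the CD31+ arrays, a difference of 0.14 (95% interval -1.76 to 2.04, limma, adjusted p = 1) that was 0.86 without both arrays numbered 2.

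Ehd1 and Ehd3, paralogs of these genes that are not members, were measured beside them. Ehd1, which drives recycling from endosomes to the surface, had 11.92, 12.18 and 11.91 in the double-positive arrays and 9.80, 9.79 and 9.11 in the CD31+ arrays. The groups were well apart, opposite in direction to Ehd4. The difference was 2.44 (limma, adjusted p = 0.0504, just above the 5% threshold). Over all probe sets it also missed with same-numbered arrays blocked (limma, adjusted p = 0.208) and with any 1 array left out (limma, adjusted p 0.052 to 0.204). It passed as higher with the filter (limma, adjusted p = 0.000549) and with the filter and centred arrays, at 1.76 (limma, adjusted p = 0.000733). A further probe set of Ehd1, 1416011_x_at, differed by 2.31 but reached the filter through the double-positive arrays alone, and those at 1.35 and 0.36 were dim. Ehd3 had a mean of 5.48 in both groups. Within arrays, Ehd1 minus Ehd4 was 4.82, 4.80 and 4.69 in the double-positive arrays and 2.10, 1.50 and 1.26 in the CD31+ arrays, a difference of 3.15 (exact permutation test, 2-sided p = 0.1, the smallest possible without pairing, for a pair chosen after the values were seen). This test too ignored the pairing of same-numbered arrays.

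**Figure D3:**
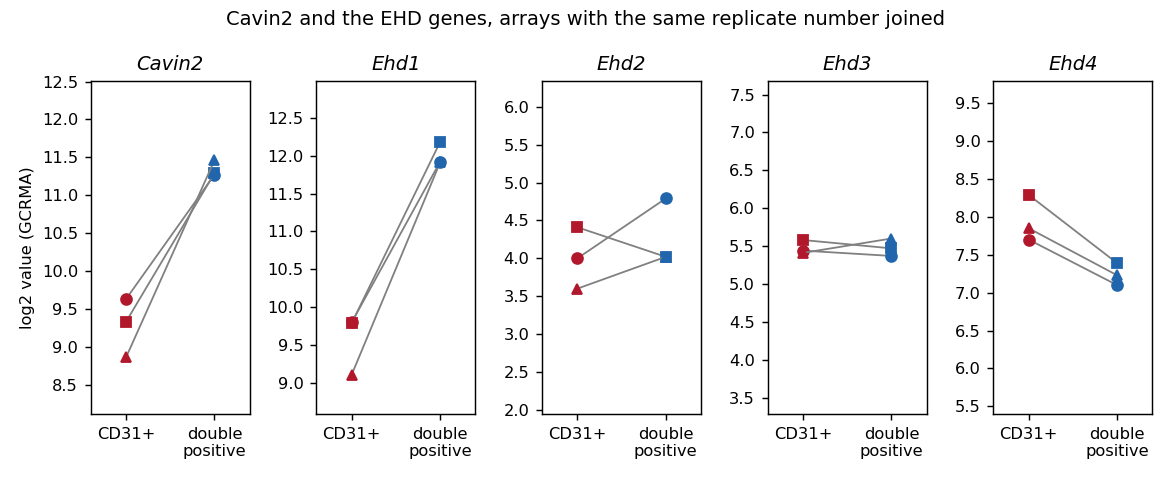
Log2 values (GCRMA, vertical axes, each spanning the same range) of Cavin2 and the 4 EHD genes in CD31+ and double-positive arrays. Lines join arrays with the same replicate number (circle 1, square 2, triangle 3; red CD31+, blue double positive). Cavin2 and Ehd1 climb in all 3 pairs and Ehd4 descends in all 3, while Ehd2 and Ehd3 run both ways.

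Other paralogs of the members were dim. Of 8 measured, 2 of them past the filter, limma called 0 in either direction over all probe sets. With the filter it called 1 (Ehd1, higher), where 32.9% of all filtered probe sets were called higher. Of the 8, 5 stayed below 3 on all arrays. Cav3 and Cavin4, the caveolin and cavin of muscle, lay at or near the floor, as did Dnm1, the dynamin of neurons. Pacsin1 and Pacsin3, relatives of the unmeasured Pacsin2, had means of at most 2.63 and 2.51.

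Proteins that work in or beside caveolae went both ways. Of 9 measured raft and caveola partners, 6 of them past the filter, limma called 0 over all probe sets. With the filter it called 4 genes higher (Cd36, Flot2, Cd59a and Nos3) and 1 lower (Aqp1). Of all filtered probe sets, counted singly and not by gene, 32.9% were called higher and 3.81% lower. The list median of 0.78 was close to the common shift between the groups. Aqp1, the water channel of caveolae in blood endothelium, had 3.23, 4.08 and 3.36 in the double-positive arrays and 7.77, 7.67 and 6.07 in the CD31+ arrays, a difference of -3.61 (filtered limma fit, adjusted p = 0.000765). It reached the filter through the CD31+ arrays alone. Cd36, a fatty acid receptor of rafts, differed by 2.30, and by 1.62 with centred arrays (filtered limma fit, adjusted p = 0.00592). Flot2, a flotillin of non-caveolar rafts, Cd59a and Nos3, the nitric oxide synthase that Cav1 restrains, differed by 1.66, 1.39 and 0.91 and did not pass with centred arrays, and Nos3 reached the filter through the double-positive arrays alone. Stom, a raft protein related to flotillins, had 2.84 ± 0.322 and 5.29 ± 0.577 (SD, n = 3 each), a difference of -2.44 (limma, adjusted p = 0.110) that was seen at 1 of its 6 probe sets.

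Of the receptors and regulators of transport across endothelium, those that passed with the filter were all lower. Of 9 measured, 3 of them past the filter, limma called 0 over all probe sets. With the filter it called 0 higher and 3 lower, on the deposited scale as with centred arrays. Of all filtered probe sets 3.81% were called lower on the deposited scale and 9.18% with centred arrays. Scarb1, the receptor of high density lipoprotein, had 8.27, 8.54 and 7.74 in the double-positive arrays and 11.94, 13.35 and 11.39 in the CD31+ arrays, a difference of -4.05 (filtered limma fit, adjusted p = 0.000480), or 16.5-fold. Its other probe sets differed by -4.07 and -3.94, the latter (1416050_a_at) past the filter through the CD31+ arrays alone. Gpihbp1, which carries lipoprotein lipase through capillary endothelium, had 3.01, 3.05 and 2.95 against 5.12, 6.51 and 5.09, and Insr, the insulin receptor, had 5.44, 5.34 and 5.23 against 7.25, 6.67 and 6.09. They differed by -2.57 and -1.34 (filtered limma fit, adjusted p = 0.00188 and 0.0176), and Gpihbp1 reached the filter through the CD31+ arrays alone. Mfsd2a, a lipid transporter that holds caveolar transcytosis down in brain vessels, stayed at 2.60 and 2.57, and Fcgrt, the neonatal Fc receptor, differed by 0.26.

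Genes of the clathrin route, the other main path of uptake, were measured on the same arrays. Of 16 measured, 7 of them past the filter, limma called 0 over all probe sets and 4 higher with the filter (32.9% of all filtered probe sets). With centred arrays as well it called 2 higher and 1 lower (12.0% and 9.18%). Dab2, a clathrin adaptor for lipoprotein receptors, had 10.16, 9.23 and 9.73 in the double-positive arrays and 6.83, 6.89 and 6.32 in the CD31+ arrays. The difference was 3.03 (limma, adjusted p = 0.0548 over all probe sets, 0.000293 with the filter), and 2.35 with centred arrays. The coat genes Clta and Cltc, at 1.25 and 1.03, and the adaptor gene Eps15, at 1.96, passed with the filter and did not at these probe sets with centred arrays. There Clta passed as higher at its other probe set, 1434540_a_at, at 1.61, which had reached the filter through the double-positive arrays alone, and Hip1, an adaptor that binds clathrin and actin, passed as lower, at -0.99 (limma, adjusted p = 0.0332). Gak and Ap2a2, at 0.49 and 0.73, were dim.

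Of 10 measured genes of endosomes and recycling, limma called 0 over all probe sets and 3 higher with the filter (32.9% of all filtered probe sets). The list median of 0.70 was about the common shift of 0.68 that centring removes. Rab11a, the GTPase of recycling endosomes, had 10.23, 10.84 and 9.87 in the double-positive arrays and 7.99, 8.35 and 7.13 in the CD31+ arrays, a difference of 2.49 (filtered limma fit, adjusted p = 0.00209) that was 1.81 with centred arrays and still passed (limma, adjusted p = 0.00271). Rab5a, of early endosomes, differed by 1.33 and Micall1, a partner of EHD1, by 0.84, and both passed with the filter on the deposited scale and not with centred arrays. Micall1 had reached the filter through the double-positive arrays alone. Eea1, a tether of early endosomes, had 4.62, 4.81 and 5.08 against 3.49, 3.65 and 3.43 and did not reach the filter (limma, adjusted p = 0.0590). Of 8 genes of vesicle fusion, Stxbp3 and Snap23 passed with the filter, at 1.47 and 1.18, and 0 passed with the filter and centred arrays. Stxbp3 too had reached the filter through the double-positive arrays alone. Vamp3, a vesicle protein that fuses endosomes and caveolar carriers, differed by 0.84 (filtered limma fit, adjusted p = 0.142).

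**Figure D4:**
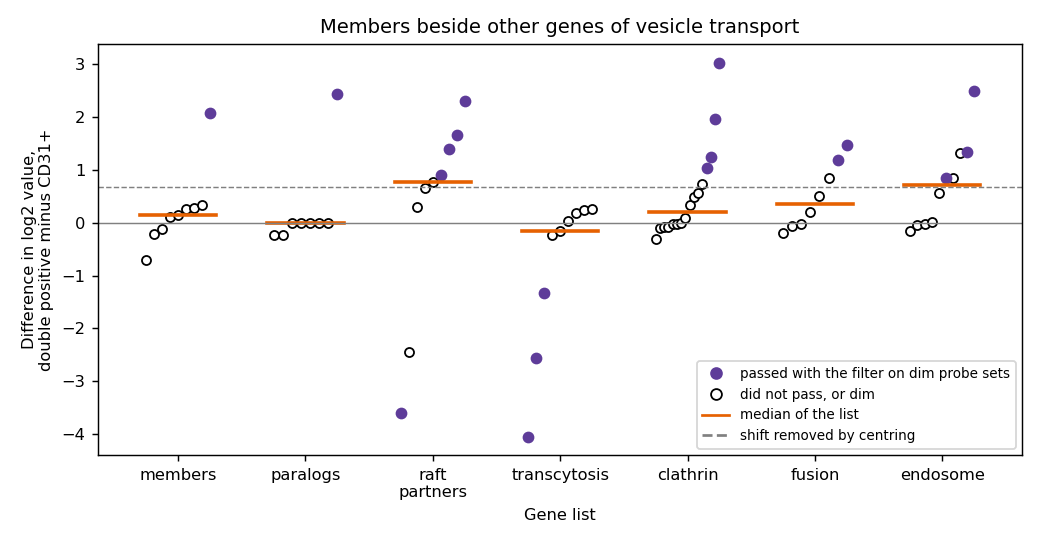
Difference in log2 value (double positive minus CD31+, vertical axis) of each gene at its brightest probe set, for the members and 6 lists of vesicle transport (horizontal axis). Filled points passed 5% FDR in limma with the filter, open points did not or were dim, bars are list medians, and the dashed line marks the 0.68 that centring removes. Cavin2 is the member that passed, and the 3 transcytosis genes that passed lie below 0.

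Other cell types rich in caveolae were checked by their markers. Of 9 markers of pericytes and smooth muscle, 3 of them past the filter, limma called 0 over all probe sets. With the filter it called 2 lower, where 3.81% of all filtered probe sets were called lower. These were Pdgfrb, with 4.14, 4.78 and 2.99 in the double-positive arrays and 7.06, 8.50 and 5.12 in the CD31+ arrays, and Acta2, which differed by -2.34. Both reached the filter through the CD31+ arrays alone. Rgs5, a marker of pericytes, was bright in both groups, with 7.02, 7.61 and 7.74 against 7.24, 8.13 and 5.98, a difference of 0.33 with overlap. The summed linear values of the 9 markers ran from 204 to 277 in the double-positive and from 175 to 901 in the CD31+ arrays, Cnn1 and Des were at the floor on all arrays, and the part of such cells in the differences of Ehd4, Aqp1 and Scarb1 was not tested. Among 6 adipocyte markers 5 stayed below 3 on all arrays, Adipoq and Lep among them, while Fabp4, which capillary endothelium also expresses, had 10.99 ± 0.132 and 10.87 ± 0.136 (SD, n = 3 each). Of 11 hematopoietic markers limma called 0, and Ptprc, which encodes CD45, had 2.67 and 3.72. Of 6 fibroblastic reticular markers, 3 of them past the filter, limma called 0 over all probe sets. With the filter it called 2 lower, Col1a2 and Col3a1, against the same 3.81%. Col1a2 reached 5 in the CD31+ arrays alone and Col3a1 on 1 double-positive array as well. The summed values of the 6 markers were 66.4 to 105 in the double-positive and 163 to 495 in the CD31+ arrays.

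As a description of pattern, the genes most like Cav1 over the 6 arrays, among 3984 genes with a mean of at least 5, were Malt1, Cnot4 and Aprt (Pearson r of 0.990, 0.982 and 0.978), and those most like Plvap were Nabp1, Ets2 and Pogk (0.991, 0.965 and 0.949). The points are the same 6 arrays, which share their scaling, and none of these genes is on a list used here.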

How the data were processed

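Per the labels, 20 ng of total RNA from each sort went through 2 rounds of linear amplification, which favours 3' ends, and was hybridised to Affymetrix mouse genome arrays. The authors deposited log2 expression values after GCRMA, whose version is not given in the sources used here, and no scanner files were used. After removal of 64 control probe sets, 45037 probe sets entered 1 linear model per probe set (limma 3.58.1 under R 4.3.3, default eBayes, Benjamini-Hochberg over all of them, 5% FDR), double positive against CD31+, without a block, a filter or further scaling. Of these, 34945 had 1 gene in the platform table, 932 several and 9160 none, and 34741 symbols were brought to current RefSeq names. A gene counted as called if at least 1 probe set of its own passed, and was described by its brightest probe set (highest mean over the arrays). Named were all members, and from each list the genes that passed or were among the 4 with the smallest adjusted p (some dim ones are left out), plus a few chosen after their values were seen (Mfsd2a, Fcgrt, Vamp3, Rab5a and marker genes). The members and lists were chosen with earlier results of these data known. Replicate numbers pair the arrays, since the series' design calls the samples paired, and deviations from the group means correlated at 0.341, 0.475 and 0.418 between same-numbered arrays and at -0.405 to 0.0566 between others. Alternatives included leaving out any 1 array, the replicate block, the filter, centring, the filter with either, a trended and robust prior, and probe sets averaged per gene. Scripts were tested on simulated data. The number of arrays limits the precision.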

Additional observations from a re-analysis of the deposited data

How the results depend on the processing

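Calls depended on the filter and the scaling more than on the arrays used. Over all probe sets, limma called 0 members and 0 genes of the 6 vesicle lists, also with the replicate block (Cavin2 adjusted p = 0.298) and with the trended prior. With the filter it called 1 member higher (3 probe sets, all of Cavin2), 1 paralog higher, 4 raft partners higher and 1 lower, 3 transcytosis genes lower, 4 clathrin, 2 fusion and 3 endosome genes higher, and the filter with the replicate block gave the same counts. Of all filtered probe sets 32.9% were called higher and 3.81% lower, and with the block 47.4% and 4.78%. With the filter and centred arrays limma called 1 member higher and 2 lower (4 probe sets), 1 paralog higher, 1 raft partner higher and 1 lower, 3 transcytosis genes lower, 2 clathrin genes higher and 1 lower, 1 endosome gene higher and 0 fusion genes, and Cav1 turned to -0.57 and Cav2 to -0.41. In that fit 12.0% of all filtered probe sets were called higher and 9.18% lower. Centring without the filter moves every dim probe set by construction. Probe set 1421431_at of Cavin1, at the floor on all 6 arrays, differed by -0.68 there and passed as lower (limma, adjusted p = 0.0128). The counts of this fit are therefore no result about the members, and the share over all probe sets was not taken. The fit called 1 member higher and 8 lower (20 probe sets), 1 and 7 paralogs, 3 and 3 raft partners and 8 transcytosis genes lower. It also called 3 and 13 clathrin, 1 and 5 fusion and 3 and 5 endosome genes, with Cavin1 at -0.34, Ehd2 at -0.40 and Dnm2 at -0.54. Averaging probe sets called 1 raft partner higher (Nos3), 1 transcytosis gene lower (Scarb1), 1 clathrin gene (Ap2a2), 1 fusion gene (Stxbp3) and 2 endosome genes (Eea1 and Rab11a) higher, and turned Ehd2 to -0.04. Without both arrays numbered 2, chosen after the data were seen, Cavin3 was 0.17 and Plvap 0.01.

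With 1 array left out, counts over all probe sets stayed at 0, except that 0 to 1 transcytosis genes and 0 to 1 clathrin genes were called lower, while Cav2 ran from -0.13 to 0.54, Cavin3 from -0.59 to 0.43 and Dnm2 from -0.37 to 0.86. With the filter as well, 1 member and 1 paralog were called higher each time and 2 to 3 member probe sets, 1 to 4 raft partners higher and 1 lower, 2 to 3 transcytosis genes lower, 3 to 4 clathrin, 1 to 3 fusion and 1 to 3 endosome genes higher. The share of all filtered probe sets called was not taken for these fits. With all arrays kept, 32.9% were called higher and 3.81% lower, so such counts alone do not set the members apart. Cavin2 at 1416778_at, above 5 on all arrays, passed in 6 of 6 such fits. Arrays give signal over background, not depth, and at 17 of the 24 member probe sets that signal was too low for a difference to be read.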
